A study of Homo sapiens with 8 samples.

Results

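The genes described here encode subunits of the oxidative phosphorylation machinery. They were taken by gene symbol from the 38157 promoter windows of an H3K9me3 chromatin immunoprecipitation (ChIP) experiment. The symbols were NDUFA, NDUFB, NDUFC, NDUFS or NDUFV followed by a number only, SDHA to SDHD and CYC1. Names beginning with UQCR, COX4 to COX8 or ATP5, with only capitals or digits after that, were also taken. Symbols such as NDUFAF1, NDUFA4L2 and SDHAF1 fall outside this rule. Of 90 windows that matched, 2 were listed for pseudogenes and were left out. The remaining 88 windows belonged to 62 genes among 24256 gene names, and for each gene the window with the most reads over all 8 libraries was used. By name, 25 genes fell to complex I, 2 to complex II, 6 to complex III, 16 to complex IV and 13 to complex V. All 62 passed the filter on low reads. A few symbols do not mean what they seem to: COX4NB, now EMC8, is a neighbour of COX4I1 that encodes a subunit of a complex of the endoplasmic reticulum, ATP5SL, now DMAC2, is not an ATP synthase subunit, COX7A2L and ATP5S are factors rather than subunits, and NDUFA4 was later assigned to complex IV. Among the subunit genes not analysed here were NDUFV1, SDHA, SDHD, COX4I1, ATP5C1 and COX8C. The counts by complex cover the genes analysed and not every subunit of a complex.

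The cells were SiHa, an established cervical cancer line of squamous origin, grown without any drug or genetic change named in the labels. They were seeded on a porous transwell membrane, and after 10 h the cells that had crossed it (migrated) and those that had not (non-migrated) were collected apart. From each fraction an input library and a library pulled down with an antibody to H3K9me3 were sequenced in 2 paired replicate sets, so that each of the 4 groups held 2 libraries. Set 1 went through gel extraction with an Illumina kit and set 2 through beads with an NEB kit, per the labels, so the kit differed between the sets and not between the fractions. The title of the migrated H3K9me3 library of set 1 was followed, although its description gives another replicate number.

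Oxidative phosphorylation takes place in the inner mitochondrial membrane. Complex I (NADH dehydrogenase) and complex II (succinate dehydrogenase) pass electrons to ubiquinone, complex III hands them to cytochrome c, complex IV (cytochrome c oxidase) passes them to oxygen, and complex V (ATP synthase) uses the proton gradient so built to make ATP. Most subunits are encoded in the nucleus and are made in nearly every cell, while several complex IV subunits also have isoforms restricted to muscle, lung or testis. Trimethylation of lysine 9 of histone H3 (H3K9me3) marks silenced chromatin, above all repeats and certain gene clusters.

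The upstream sequences of 6 members are printed as examples of the promoters of these genes. They were chosen after their values were seen, as members with 1 window each, on the strand of the gene, 3 of them below the centre of the H3K9me3 scale and 3 above it. Each is the 250 bases before the start of transcription in RefSeq on GRCh38.p14, 5′ to 3′ on the strand of the gene, with CG dinucleotides in capitals. The windows themselves are in hg19, and the positions of the 2 builds were not matched to each other, so whether these bases lie inside the measured windows was not tested.

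The low members were ATP5E (F1 epsilon subunit, chr20:59032336-59032585, minus strand, 30 CG), UQCRC2 (core protein of complex III, chr16:21953111-21953360, plus strand, 11 CG) and NDUFB6 (membrane arm of complex I, chr9:32573160-32573409, minus strand, 16 CG).
ATP5E: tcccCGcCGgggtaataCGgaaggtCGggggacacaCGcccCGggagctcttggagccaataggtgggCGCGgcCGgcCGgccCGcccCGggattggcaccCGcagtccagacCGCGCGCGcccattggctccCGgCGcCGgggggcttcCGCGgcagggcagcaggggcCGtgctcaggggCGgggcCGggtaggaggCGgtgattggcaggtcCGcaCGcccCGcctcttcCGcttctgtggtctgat
UQCRC2: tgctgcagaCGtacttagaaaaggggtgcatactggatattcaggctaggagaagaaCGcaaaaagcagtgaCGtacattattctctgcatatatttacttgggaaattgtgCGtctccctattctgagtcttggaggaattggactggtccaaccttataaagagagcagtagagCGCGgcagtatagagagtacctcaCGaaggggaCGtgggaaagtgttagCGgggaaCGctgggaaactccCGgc
NDUFB6: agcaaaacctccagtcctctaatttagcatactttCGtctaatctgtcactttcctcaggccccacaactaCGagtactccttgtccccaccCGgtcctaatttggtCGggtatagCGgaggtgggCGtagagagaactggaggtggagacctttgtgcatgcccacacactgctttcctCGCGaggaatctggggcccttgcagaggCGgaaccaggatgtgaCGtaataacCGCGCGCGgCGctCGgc

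The members above the centre were COX8A (ubiquitous isoform of a small complex IV subunit, chr11:63974370-63974619, plus strand, 16 CG), COX7B (complex IV, chrX:77899218-77899467, plus strand, 13 CG) and COX7B2 (the testis isoform of COX7B, chr4:46909246-46909495, minus strand, 5 CG).
COX8A: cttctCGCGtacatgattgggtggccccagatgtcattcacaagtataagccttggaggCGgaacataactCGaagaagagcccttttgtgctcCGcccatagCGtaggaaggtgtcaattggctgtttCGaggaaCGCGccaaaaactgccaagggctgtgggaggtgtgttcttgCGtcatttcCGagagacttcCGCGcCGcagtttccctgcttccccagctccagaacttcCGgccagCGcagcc
COX7B: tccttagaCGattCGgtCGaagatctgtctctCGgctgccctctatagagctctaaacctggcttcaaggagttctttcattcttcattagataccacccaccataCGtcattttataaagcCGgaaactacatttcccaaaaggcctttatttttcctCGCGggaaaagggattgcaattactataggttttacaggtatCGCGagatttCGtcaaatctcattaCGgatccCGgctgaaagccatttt
COX7B2: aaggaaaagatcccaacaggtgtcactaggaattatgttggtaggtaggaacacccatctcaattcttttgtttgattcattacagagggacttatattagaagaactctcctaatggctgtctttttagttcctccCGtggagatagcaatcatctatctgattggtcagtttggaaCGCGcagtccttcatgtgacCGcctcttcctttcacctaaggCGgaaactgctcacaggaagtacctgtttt

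ATP5E, the lowest member, had the most CG dinucleotides of these 6 and COX7B2, the highest, the fewest, but UQCRC2, the next lowest, had fewer CG than COX8A or COX7B. A RefSeq promoter of 300 bases (250 before and 50 after the start) was found for 48 of the 62 members. It held a median of 22 CG dinucleotides, with a range from 0 to 43, against a median of 14 over 27305 promoters, at a similar GC content (59% against 58.3%). The ETS motif CCGGAAG stood on either strand in 13 of the 48 (27.1%, against 10.7% of all promoters), the core of the YY1 motif, ATGGCGG, in 12 (25%, against 5.72%), the core of the NRF1 motif, GCATGCG, in 9 (18.8%, against 4.13%) and the Sp1 motif GGGCGG in 31 (64.6%, against 44.6%). None of these motifs contains another, and a match is a match of letters only. The median CG count was 22 in the 27 members with a promoter that lay below the centre in the test of H3K9me3, 21 in the 18 that were not called and 14 in the 3 that were enriched, whose counts ran from 8 to 37. Across the 39 members whose window lay on the strand of the gene, CG count and H3K9me3 over input correlated at Pearson r = -0.29 and Spearman rho = -0.30, as a description of points that share the same 8 libraries.

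Promoter reads numbered 388191 (input) and 164766 (H3K9me3) for non-migrated cells and 684949 and 88028 for migrated cells in set 1, and 1729061, 1137376, 1679874 and 984835 in the same order in set 2. At the members the median window of set 2 held 48.5 and 45 input reads and 16.5 and 10.5 H3K9me3 reads in non-migrated and migrated cells, whereas set 1 had medians of 11, 21, 2 and 1. In set 1, 5 members had no H3K9me3 read in either fraction and 16 had none in 1 fraction; a count of 0 allows up to 3 reads, or 0.00182% and 0.00341% of the non-migrated and migrated H3K9me3 libraries. No member was at 0 in set 2. Set 1 therefore gives coarse values for single genes, yet the fit weighs both sets alike. COX7A2L, for example, had a log2 of H3K9me3 over input of -2.31 in set 1 and -0.24 in set 2. Its fitted value was -1.30.

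Values below are log2 of H3K9me3 over input from the 2 sets with limma's SE, averaged over both fractions unless stated. They are relative to the centre set by the library scaling and not absolute, and the median of 23170 genes, each by 1 window, lay at -0.21. A value below 0 thus means less H3K9me3 relative to input than the centre, and a bulk library cannot tell fewer marked cells from less mark per cell. The model fits the difference in H3K9me3 over input between the sets as a term of its own. The SE and p of a level therefore leave out how far the 2 sets disagree. COX6A2, at 0.71 in set 1 and -2.16 in set 2, had an SE of 0.45.

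Promoter windows of oxidative phosphorylation genes carried little H3K9me3. The 62 members had a median of -1.23, or 0.426 of the input, against -0.21 (0.864) for all genes, and their middle values ran from -1.74 (lower quartile) to -0.42 (upper quartile). Below the centre at an adjusted p under 0.05 in limma's test lay 37 of 62 (59.7%), where 32.3% of all genes were called in that direction. Only 3 were enriched (4.84%), where 18.3% of all genes were, and 22 were not called. By sign alone, 52 lay below 0 and 10 above. The median member lay above 26.3% of genes. Of the 62, 8 stood in the lowest 10% of genes, 21 in the lowest 20%, 15 beyond the median of all genes and 1 in the highest 10%.

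The raw reads showed the same order in each library pair. Members took 0.188% of the promoter reads of the non-migrated input of set 1 (95% Wilson interval 0.175 to 0.202) and 0.103% (0.0888 to 0.120) of its H3K9me3 library. For migrated cells of set 1 the shares were 0.197% (0.187 to 0.208) and 0.119% (0.0986 to 0.144). In set 2 they were 0.199% (0.192 to 0.206) and 0.131% (0.124 to 0.138) for non-migrated cells, and 0.190% (0.183 to 0.196) and 0.115% (0.109 to 0.122) for migrated cells. In all 4 pairs the H3K9me3 share lay below the input share and the intervals, which cover counting error only, did not overlap. Both sets gave members below all genes: set 1 alone had a member median 0.72 below that of all genes on the log2 scale and set 2 alone 1.08 below. Within a set each group holds 1 library, so only the fractions could serve as replicates there. Calls within a set are therefore not weighed here, and their counts appear only under how the results depend on the processing. With all 8 libraries 37 members were called below the centre. Fewer were called without the non-migrated H3K9me3 library of set 1 or without the migrated input of set 2. The medians of members and of all genes were then -0.83 and -0.06 in the first refit, and -0.99 and 0.03 in the second. Leaving out a library leaves 1 in its group. The share of all genes called in such refits was not counted, so the counts below with a library left out stand without it.

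**Figure D1:**
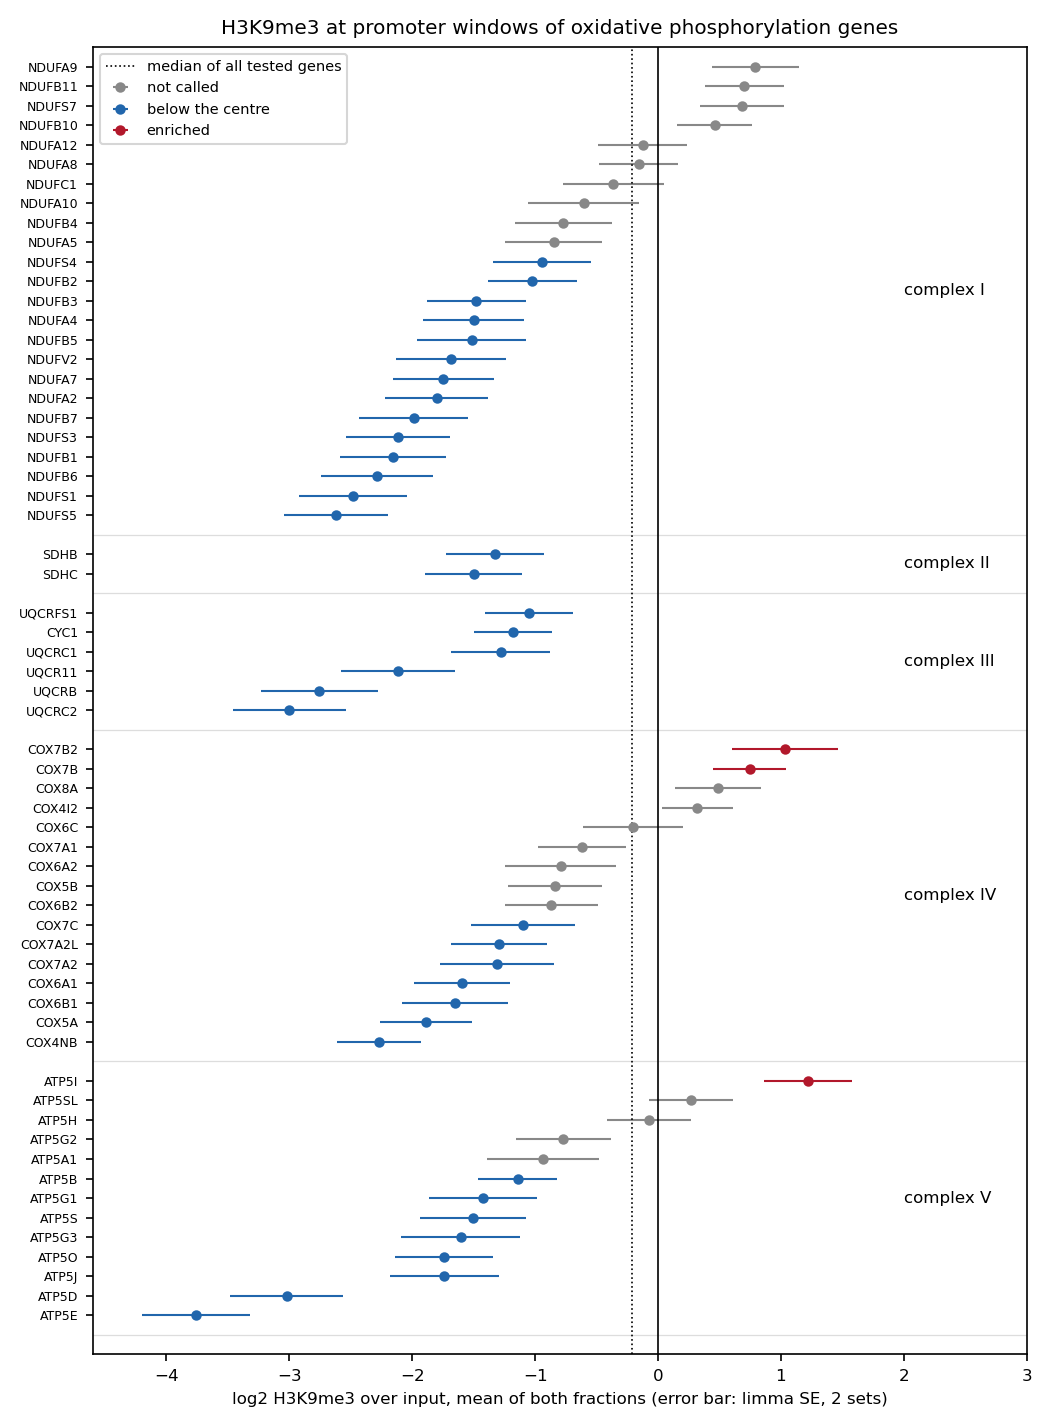
H3K9me3 over input (log2, mean of both fractions, x axis) for 61 of the 62 genes (y axis), ordered within complexes I to V, with limma's SE as the error bar, 0 as the solid line and the median of all tested genes as the dotted line. Genes called below the centre (37) fill the left side in every complex, and the 3 enriched genes are COX7B2, COX7B and ATP5I.

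Complex I was split. Of 25 genes, 14 lay below the centre and 11 were not called, with a median of -1.02 and a range from -2.62 to 0.79. The 14 became 8 when the migrated input of set 2 was left out. NDUFS5, an accessory subunit of the membrane arm (chr1:39489990-39492090), was its lowest gene. Its input held 13 (non-migrated) and 23 (migrated) reads in set 1 and 53 and 54 in set 2, an order kept for every gene below, against 0 and 0 H3K9me3 reads in set 1 and 13 and 5 in set 2. The H3K9me3 libraries were smaller than their inputs throughout. After scaling for library size all 4 pairs lay below the centre, and limma's fit gave -2.62 ± 0.42 (adjusted p = 6.52e-06). NDUFS1, the iron-sulphur subunit that carries electrons away from the NADH site (chr2:207024227-207026327), had 58 and 47 input reads in set 2 and 5 and 9 H3K9me3 reads, and none of the latter in set 1 (-2.48 ± 0.44, adjusted p = 2.10e-05).

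The window used for NDUFS7, an iron-sulphur subunit at the ubiquinone site, had 57 and 44 input and 61 and 55 H3K9me3 reads in set 2 (0.68 ± 0.34, adjusted p = 0.0927). That window lies on the strand opposite to the gene, and the window of NDUFS7 on its own strand (chr19:1381526-1383626) lay below the centre, with 56 and 36 input and 7 and 9 H3K9me3 reads in set 2 (-1.005 ± 0.41, adjusted p = 0.0382). Of the 5 core subunits with a window, 3 were called below the centre (median -1.68), as were 10 of 19 accessory subunits (median -0.94). Among accessory subunits, 6 of the 9 NDUFB genes, which sit in the membrane arm, were called (median -1.48).

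The upper end of complex I held NDUFA9 and NDUFB11. NDUFA9, which lies near the ubiquinone site, had 24 and 32 input and 36 and 23 H3K9me3 reads in set 2, and 9 and 13 against 5 and 5 in set 1 (0.79 ± 0.35, adjusted p = 0.0598). All 4 pairs were above the centre, yet the gene has 3 windows, and that with the most input reads, on the other strand, gave -1.63 (adjusted p = 0.00179). NDUFB11, a membrane arm subunit on the X chromosome (chrX:47004803-47006903), had 87 and 64 input and 61 and 78 H3K9me3 reads in set 2 (0.70 ± 0.32, adjusted p = 0.0676). With the scaling of the deposited values NDUFB11 and NDUFA9 lay slightly below 0 (-0.20 and -0.15).

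Both members of complex II and all 6 members of complex III lay below the centre, with medians of -1.41 and -1.70. Without the non-migrated H3K9me3 library of set 1 these counts were 1 and 3, and without the migrated input or the migrated H3K9me3 library of set 2 they were 1 and 4. SDHB, the iron-sulphur subunit of succinate dehydrogenase, had 69 and 52 input and 22 and 12 H3K9me3 reads in set 2 (-1.32 ± 0.40, adjusted p = 0.00582), and SDHC, a membrane anchor, had 42 and 39 against 11 and 10 (-1.50 ± 0.40, adjusted p = 0.00197). SDHB was not called without the non-migrated H3K9me3 library of set 1 (adjusted p = 0.143), the migrated input of set 2 (0.0727) or the migrated H3K9me3 library of set 2 (0.120). The lowest complex III genes were UQCRC2, a core protein of the complex whose upstream sequence is printed above (chr16:21961981-21964081), and UQCRB, a small subunit. UQCRC2 had 7 and 23 input reads in set 1 and 46 and 43 in set 2, against 0 and 0 and then 3 and 3 H3K9me3 reads (-3.00 ± 0.46, adjusted p = 3.07e-06). UQCRB had 10 and 22, then 30 and 25 input reads, against 1 and 0, then 2 and 1 H3K9me3 reads (-2.76 ± 0.48, adjusted p = 1.58e-05). In neither gene did any H3K9me3 library reach more than a few reads.

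CYC1, UQCRFS1 and UQCRC1 were less extreme. CYC1 (cytochrome c1) had 100 and 109 input and 30 and 23 H3K9me3 reads in set 2 (-1.18 ± 0.32, adjusted p = 0.00234). UQCRFS1, the Rieske iron-sulphur protein, had 66 and 45 against 17 and 13 (-1.05 ± 0.36, adjusted p = 0.0149), and UQCRC1, the other core protein, 38 and 48 against 13 and 7 (-1.28 ± 0.40, adjusted p = 0.00791). All 4 pairs of each of these 3 genes were below the centre. The calls of all 3 were lost without the non-migrated H3K9me3 library of set 1 (adjusted p = 0.0563 for CYC1, 0.0909 for UQCRFS1 and 0.151 for UQCRC1). UQCRC1 was also not called without the migrated input (0.0905) or the migrated H3K9me3 library of set 2 (0.103). UQCRFS1 was also not called with no filter on low reads (-0.76, adjusted p = 0.0804), nor without the migrated input of set 1 (0.170), the migrated H3K9me3 library of set 1 (0.0792), the non-migrated input of set 2 (0.155), the migrated input of set 2 (0.0591) or the migrated H3K9me3 library of set 2 (0.0597).

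Complex IV was mixed. Of 16 genes, 7 lay below the centre, 2 were enriched and 7 were not called, with a median of -0.85 that was -0.25 in set 2 and -0.92 in set 1. The 7 became 3 without the migrated input of set 1 or the non-migrated input of set 2, and 4 without the migrated input of set 2. The difference of the complex IV median from that of all genes was -0.64, and it was -0.39 when either the non-migrated H3K9me3 library of set 1 or the migrated one of set 2 was left out. Among the 9 ubiquitous subunits 5 were called below the centre (median -1.10), and of the 5 isoforms of muscle, lung and testis 1 was enriched and 4 were not called (median -0.62). With median-of-ratios scaling 1 of these 5 isoforms lay below the centre (COX6B2, -0.97, adjusted p = 0.0298), and with the scaling of the deposited values 3 did (COX6A2, adjusted p = 0.00798, COX6B2, 0.000995, and COX7A1, 0.00473). A test of the difference between the ubiquitous subunits and the isoforms was not made. COX4NB, the gene of another complex, was the lowest of the 16 (-2.27). Its window (chr16:85831290-85833390) lies on the strand opposite to COX4NB, on which COX4I1 is the neighbour. The windows of COX4NB on its own strand gave -2.25 (chr16:85833048-85835148) and -0.38 (chr16:85815405-85817505).

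COX5A, a ubiquitous subunit (chr15:75230409-75232509), had 21 and 36 input reads in set 1 and 62 and 84 in set 2, against 3 and 0, then 28 and 12 H3K9me3 reads (-1.89 ± 0.37, adjusted p = 8.83e-05). COX5B, another ubiquitous subunit, had 52 and 54 input and 14 and 15 H3K9me3 reads in set 2 (-0.84 ± 0.39, adjusted p = 0.0675), and 9 and 23 against 5 and 1 in set 1. COX5A was below the centre in every pair and COX5B in 3 of 4.

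The tissue isoforms differed among themselves. COX7B2, the testis isoform of COX7B (chr4:46911152-46913252), had 9 and 23 input and 21 and 27 H3K9me3 reads in set 2, and 8 and 7 against 2 and 4 in set 1 (1.04 ± 0.43, adjusted p = 0.0437). It was above the centre in 3 of 4 pairs, and its input of 9 reads is the lowest of any member in set 2. COX4I2, the lung isoform, had 94 and 85 against 74 and 57 (0.32 ± 0.29, adjusted p = 0.371). The muscle isoforms COX6A2 (43 and 41 against 8 and 4, -0.79 ± 0.45, adjusted p = 0.143) and COX7A1 (51 and 43 against 28 and 28, -0.62 ± 0.36, adjusted p = 0.147) and the testis isoform COX6B2 (49 and 49 against 35 and 20, -0.87 ± 0.38, adjusted p = 0.0526) were not called. COX6B2 was called without the migrated H3K9me3 library of set 1 (adjusted p = 0.00986) and, as was COX6A2, without the non-migrated H3K9me3 library of set 2 (0.00780 and 0.0311). COX6A2 was above the centre in both pairs of set 1 and below it in both pairs of set 2.

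COX7B, the ubiquitous counterpart of COX7B2, was the other enriched complex IV gene. It lies on the X chromosome (chrX:77152935-77155035) and had 53 and 33 input and 59 and 47 H3K9me3 reads in set 2, and 20 and 19 against 10 and 5 in set 1 (0.75 ± 0.30, adjusted p = 0.0342). All 4 pairs were above the centre. Both members on the X chromosome, COX7B and NDUFB11, were above it, and so was the median of the 866 genes of that chromosome (0.56), of which 352 were enriched and 50 below the centre. Their levels thus resembled those of the chromosome that they lie on. Chromosome 19, which holds many zinc finger genes, carried 10 members, and 6 of these were below the centre and 4 not called (median -1.35), where of all 1280 genes there 475 were below and 321 enriched (median -0.38).

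Complex V held both ends of the range. Of 13 genes, 8 lay below the centre, 1 was enriched and 4 were not called, with a median of -1.42. The 8 became 4 without the non-migrated H3K9me3 library of set 1, and 5 without the migrated input of set 1, the non-migrated input of set 2 or the migrated H3K9me3 library of set 2. The difference of this median from that of all genes, -1.21, was -0.69 when either the non-migrated H3K9me3 library of set 1 or the migrated one of set 2 was left out. ATP5E, the epsilon subunit of the F1 head (chr20:57607337-57609437), was the lowest of all 62 members. It had 19 and 34 input reads in set 1 and 66 and 74 in set 2, against 0 and 0, then 4 and 2 H3K9me3 reads (-3.76 ± 0.44, adjusted p = 8.21e-08). ATP5D, the delta subunit of the same stalk (chr19:1239749-1241849), had 11 and 12, then 58 and 53 input reads, against 0 and 0, then 2 and 4 (-3.02 ± 0.46, adjusted p = 2.86e-06). After scaling for library size, every pair of both genes lay below the centre.

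In the windows used, the F1 beta and alpha subunits were less low than ATP5E and ATP5D. ATP5B (F1 beta) had 106 and 97 input and 30 and 16 H3K9me3 reads in set 2 (-1.14 ± 0.32, adjusted p = 0.00352). It was no longer called without the non-migrated H3K9me3 library of set 1 (-0.76, adjusted p = 0.0967). The window used for ATP5A1 (F1 alpha) lies on the other strand, on which HAUS1 is the neighbour, and had 43 and 29 against 13 and 5 (-0.94 ± 0.46, adjusted p = 0.0870), while its own-strand window (chr18:43684200-43686300) had 47 and 33 against 8 and 2 (-2.43 ± 0.47, adjusted p = 7.63e-05). Of the 3 genes for the rotating c-ring, 2 lay below the centre (median -1.42), and of the 3 peripheral stalk genes also 2 (median -1.74).

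ATP5I, a subunit of the membrane part, was the most enriched member. The window used (chr4:665369-667469) had 43 and 37 input and 82 and 68 H3K9me3 reads in set 2, and 4 and 19 against 9 and 2 in set 1 (1.22 ± 0.36, adjusted p = 0.00477). It lies on the strand opposite to ATP5I, on which MYL5, a myosin light chain gene, is the neighbour. The window of ATP5I on its own strand (chr4:668027-670127) had 63 and 61 input and 29 and 19 H3K9me3 reads in set 2 and gave 0.03 ± 0.42 (adjusted p = 0.957). The enrichment listed under this symbol was therefore not measured at the window on the strand of ATP5I.

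With the scaling of the deposited values, which moved the median of all genes from -0.21 to -1.17, 49 members were called below 0 and the other 13 were not called. The enrichment of the 3 members did not hold under that scaling: COX7B gave -0.20 (adjusted p = 0.763), COX7B2 0.04 (adjusted p = 0.955) and ATP5I 0.30 (adjusted p = 0.645). With median-of-ratios scaling ATP5I alone was enriched. COX7B was not called without the non-migrated input of set 1 (adjusted p = 0.0895), the migrated input of set 1 (0.157), the non-migrated input of set 2 (0.142) or the migrated H3K9me3 library of set 2 (0.0914). COX7B2 was not called without the migrated input of set 1 (adjusted p = 0.582), the non-migrated input of set 2 (0.578) or the non-migrated H3K9me3 library of set 2 (0.137), nor with no precision weights (0.109) or the quasi-Poisson model (0.161). With no precision weights NDUFB11 was enriched (0.75, adjusted p = 0.0401). ATP5I was not called without the non-migrated input of set 1 (adjusted p = 0.0614) or the migrated H3K9me3 library of set 2 (0.0906).

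Windows listed under the same symbol often differed. Of the 62 members, 20 had 2 or 3 windows, and for 11 of these the highest and the lowest window differed by more than 1 on the log2 scale. The median spread was 1.10. The strand of the gene could be looked up in RefSeq for 48 members, and the chosen window lay on it for 39 and on the other for 9. Since the windows were picked by reads of all libraries, H3K9me3 reads included, this choice can favour marked windows. When input reads alone decided, 42 members were below the centre. The median of all genes then moved too, from -0.21 to -0.39, beside -1.23 to -1.45 for members. The share of all genes called with that choice was not counted.

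ATP5H, a peripheral stalk gene singled out after its values were seen, had the widest spread (2.73). Its chosen window (chr17:73035858-73037958, other strand) gave -0.07, and its own-strand window (chr17:73042974-73045074) had 70 and 67 input and 2 and 4 H3K9me3 reads in set 2 and gave -2.80 ± 0.46 (adjusted p = 8.44e-06). ATP5J, also of the stalk and chosen in the same way, went from -1.74 in the window on the strand of its neighbour GABPA to -3.02 ± 0.45 in its own (adjusted p = 2.35e-06). In the opposite direction, NDUFS3, a core subunit of complex I, went from -2.12 in the window on the strand of KBTBD4 to -0.94 ± 0.39 in its own (adjusted p = 0.0430). With own-strand windows throughout, 28 of 47 members (59.6%) lay below the centre and 2 were enriched, at a median of -1.10.

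**Figure D2:**
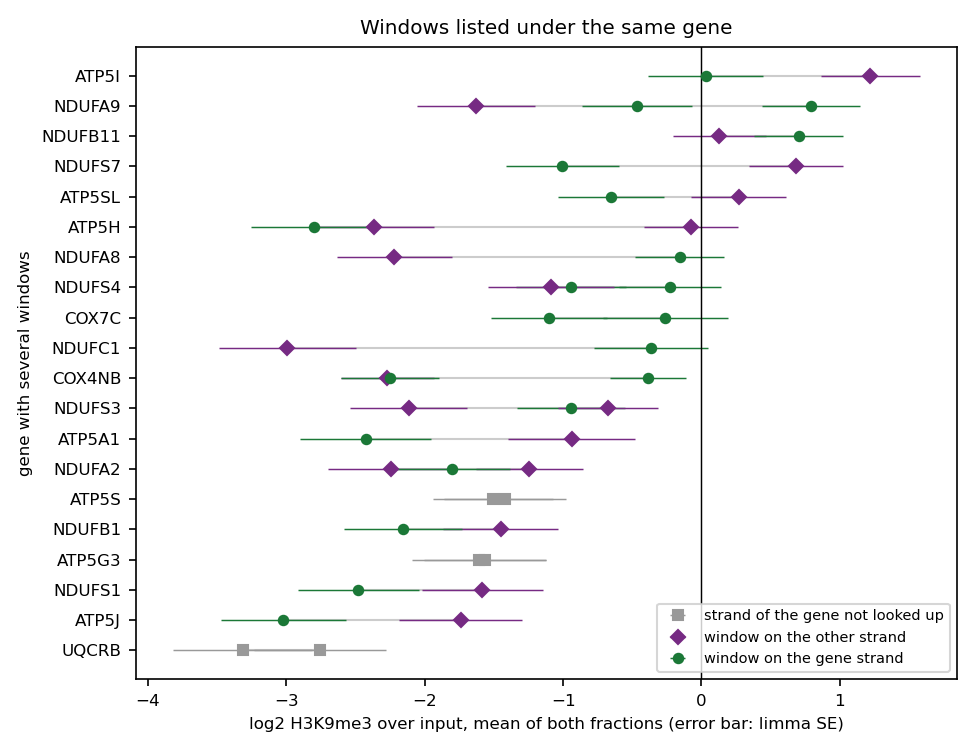
H3K9me3 over input (log2, mean of both fractions, x axis) for every window of the 20 genes with more than 1 (y axis), with limma's SE as the error bar and the strand of the window relative to the gene as colour and shape. ATP5H, NDUFC1, NDUFA9 and NDUFA8 have windows more than 2 apart, and the own-strand window of ATP5I sits at 0.03.

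Other genes of mitochondrial energy metabolism, taken from lists of assembly factors, electron carriers, regulators and the tricarboxylic acid (TCA) cycle, had medians below that of all genes. They are given beside the 32.3% of all genes called below the centre and the 18.3% enriched, and no test between lists was made. Only listed symbols with a tested window are counted. These were 34 of 64 symbols for assembly factors, 15 of 20 for electron carriers and 18 of 23 for regulators. For the TCA cycle they were 18 of 21, and for subunits outside the rule 5 of 9. Of 34 genes on the list of assembly factors, 19 (55.9%) lay below the centre and 2 were enriched (median -1.12). Of 15 genes for ubiquinone synthesis, electron transfer flavoprotein and cytochrome c, 12 (80%) were below and 3 not called (median -1.64). Of 18 regulators of mitochondrial gene expression 12 (66.7%) were below and 1 enriched (median -1.70), and of 18 TCA cycle genes 11 (61.1%) were below and 2 enriched (median -1.57). Of 5 subunit or subunit-related genes whose names fall outside the rule, 4 were below the centre, and 1, C14orf2, now ATP5MJ, was enriched in a window on its other strand (1.20 ± 0.35, adjusted p = 0.00445).

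FAM36A, now called COX20, and COX18, both of which help assemble complex IV, were the lowest assembly factors (-3.09 ± 0.48 and -2.98 ± 0.53). SURF1, another complex IV factor, had 95 and 93 input and 10 and 8 H3K9me3 reads in set 2 (-1.97 ± 0.42, adjusted p = 0.000238). The highest were NUBPL, which brings iron-sulphur clusters to complex I (23 and 17 against 47 and 53 reads in set 2, 1.41 ± 0.36, adjusted p = 0.00140), and C8orf38, now NDUFAF6 (1.07 ± 0.44, adjusted p = 0.0403). The window of NUBPL lies on the strand of the gene, and that of C8orf38 could not be placed by strand.

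Cytochrome c itself (CYCS) had 64 and 54 input and 3 and 4 H3K9me3 reads in set 2 (-1.79 ± 0.46, adjusted p = 0.00156). ETFB, a subunit of the electron transfer flavoprotein, and ADCK4, a kinase-like protein of ubiquinone synthesis, were the lowest of the carrier list (-3.33 ± 0.43 and -3.03 ± 0.42), and COQ5 and HCCS the highest (both -0.23, not called). Among regulators, POLG2 (a subunit of the mitochondrial DNA polymerase, -3.56 ± 0.50) and ESRRA (an orphan nuclear receptor, -3.39 ± 0.45) were lowest, and TFAM, which packages mitochondrial DNA, was called as well (-2.43 ± 0.45, adjusted p = 4.16e-05). NRF1, whose product binds promoters of respiratory genes, was not called (-0.45 ± 0.37, adjusted p = 0.312 in limma's test). In set 2 it had 50 and 51 input and 63 and 54 H3K9me3 reads, above the centre in both fractions (0.81 and 0.84). In set 1 it had 16 and 25 input reads against 4 and 0 H3K9me3 reads.

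PPARGC1A, a coactivator that drives mitochondrial biogenesis in muscle and brown fat, was the enriched regulator (31 and 19 input against 20 and 24 H3K9me3 reads in set 2, 0.95 ± 0.36, adjusted p = 0.0268). Its window lies on the strand opposite to the gene. C17orf42, now TEFM, was the next highest (0.14 ± 0.36, not called). In the TCA cycle list DLST (-3.17 ± 0.47) and SUCLG1 (-2.87 ± 0.45) were lowest, and PDHA2, the testis copy of a pyruvate dehydrogenase subunit (1.86 ± 0.36, adjusted p = 6.73e-05), and IDH3G on the X chromosome (1.18 ± 0.32, adjusted p = 0.00257) highest.

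**Figure D3:**
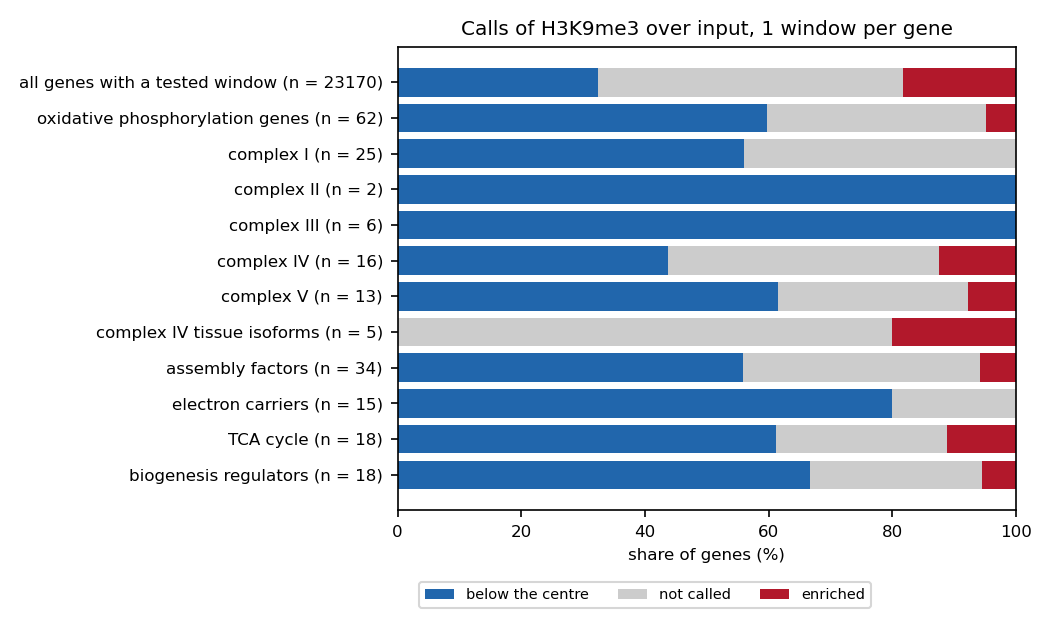
Share of genes (%, x axis) called below the centre, not called or enriched for H3K9me3 over input, by 1 window per gene, for all genes, the 62 oxidative phosphorylation genes, each complex, the complex IV tissue isoforms and the other lists (y axis, with the number of genes). Members below the centre make up 59.7% against 32.3% of all genes, and none of the 5 tissue isoforms is below the centre, where 1 was with median-of-ratios scaling and 3 were with the deposited scaling.

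The study set migrated against non-migrated cells. In non-migrated cells 22 members lay below the centre, where 21.4% of all genes were called in that direction, and 1 was enriched (10.2% of all genes). In migrated cells 31 lay below (25.9% of all genes) and 3 were enriched (15.1%). Called below the centre in both fractions were 19 members (30.6%, against 18.1% of all genes). A further 3 (NDUFV2, NDUFA4 and COX7A2) were called in non-migrated cells only (4.84%, against 3.28% of all genes), and 12 in migrated cells only (19.4%, against 7.79%). A call in 1 fraction only is not a difference between fractions, and no member passed the test of that difference. ATP5I was the enriched member of non-migrated cells, and ATP5I, COX7B and NDUFB11 were those of migrated cells.

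These counts moved with single libraries. The count in non-migrated cells was 5 without the non-migrated input of set 2, 7 without the non-migrated H3K9me3 library of set 1 and 7 without the migrated input of set 2. The count in migrated cells was 14 without the migrated input of set 1, 5 without the migrated input of set 2 and 4 when the migrated H3K9me3 library of that set was left out.

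No difference between the fractions was detected at any member. In limma's test of the input-corrected change none of the 62 passed, as none of all genes did (0% of genes called lower and 0% higher). At an unadjusted p under 0.05 stood 2 members (COX5A and NDUFB11), where 3.43% of all genes did, and the quasi-Poisson model also called none; ATP5G3 alone passed when the migrated H3K9me3 library of set 1 was left out. The median change of members was -0.01, with 0.26 in set 1 and -0.15 in set 2, so the sets pointed to different sides. The change was below 0 in both sets for 18 members and above 0 in both for 14. Standard errors of the change ran from 0.33 to 0.95, and changes larger than their SE, such as those of COX5A and NDUFB11, did not pass either.

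Pooled over all 62 members, the ratio of H3K9me3 to input reads after scaling was, for non-migrated and then migrated cells, 0.511 and 0.515 in set 1, and 0.601 and 0.604 in set 2. The log2 change was 0.01 in both sets, with counting intervals (95%, counting error only) of -0.36 to 0.39 in set 1 and -0.13 to 0.14 in set 2. This sum joined parts that went different ways. The 37 members below the centre gave -0.13 in set 1 (-0.75 to 0.48) and -0.32 in set 2 (-0.55 to -0.10), and the other 25 gave 0.13 (-0.35 to 0.62) and 0.16 (-0.02 to 0.33). The interval of the 37 in set 2 does not hold 0; it covers counting error only, and these groups were split by levels in the same libraries, so the values are a description. By complex, the change in set 2 was 0.07 for complex I (-0.13 to 0.27), -0.01 for complex II (-0.89 to 0.86), -0.14 for complex III (-0.70 to 0.43), 0.08 for complex IV (-0.16 to 0.32) and -0.19 for complex V (-0.49 to 0.11). Each of these 5 intervals by complex holds 0. The tissue isoforms of complex IV went from 0.541 to 1.19 times input in the pooled reads of set 1 (log2 change 1.14, 0.05 to 2.22), and stood at 0.938 and 0.955 in set 2 (0.03, -0.39 to 0.44).

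Of single members, COX5A had the smallest p among those lower in migrated cells. Its 62 input and 28 H3K9me3 reads in non-migrated cells of set 2 stood against 84 and 12 in migrated cells, and 21 and 3 against 36 and 0 in set 1. The level was lower in migrated cells of both sets, and the change was -1.47 ± 0.65 (adjusted p = 0.999 by limma). ATP5B (-0.41 ± 0.54) and NDUFA12, an accessory subunit of complex I (-0.44 ± 0.59), were also lower in migrated cells of both sets, and neither change exceeded its SE. These 3 were named because their H3K9me3 libraries of set 2 held at least 20 reads on average. Some members with fewer reads were also lower in both sets, with larger fitted changes than ATP5B and NDUFA12, and did not pass either. Of these NDUFA7, an accessory subunit of complex I, gave a change of -1.33 ± 0.71 (16 and 7 H3K9me3 reads in set 2), NDUFB4, of its membrane arm, -1.14 ± 0.70 (22 and 8) and ATP5O, of the peripheral stalk, -1.14 ± 0.72 (18 and 10).

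NDUFB11 had the smallest p among members higher in migrated cells. Its 87 input and 61 H3K9me3 reads in non-migrated cells of set 2 stood against 64 and 78 in migrated cells, and 7 and 5 against 17 and 6 in set 1. Both sets were higher in migrated cells, with a change of 1.00 ± 0.43 (adjusted p = 0.999 by limma). COX7B (0.69 ± 0.48) and COX7A1 (0.77 ± 0.55) were higher in both sets too, and COX7B turned to -0.19 with the scaling of the deposited values. Below 20 reads, COX7A2, a ubiquitous complex IV subunit, gave 1.72 ± 0.88 from 4 and 8 H3K9me3 reads in set 2 (2.35 in set 1 and 1.34 in set 2). Without the migrated H3K9me3 library of set 1, 1 member passed, ATP5G3, a c-ring gene (-3.44, adjusted p = 0.0473), among 97 windows of the whole table that passed then; in set 2 it had 24 and 23 input reads and 15 and 1 H3K9me3 reads in non-migrated and migrated cells.

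**Figure D4:**
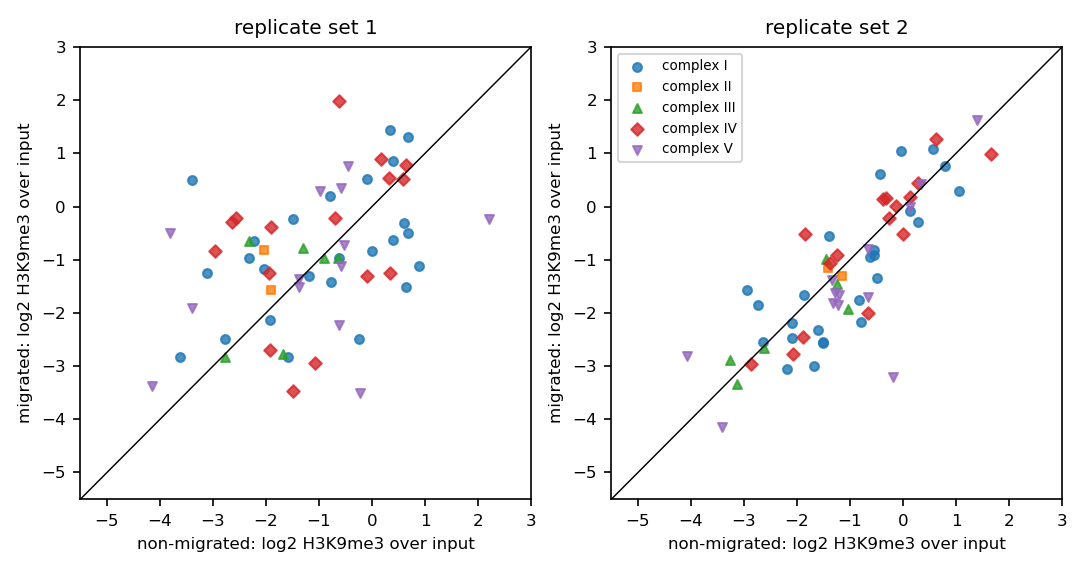
H3K9me3 over input (log2, 0.5 added to each count) of each of the 62 genes in non-migrated (x axis) and migrated cells (y axis), in replicate set 1 (left) and set 2 (right), with the complex as colour and shape and the line of equal values. The points follow the line in set 2 (Pearson r = 0.83) and scatter in set 1 (r = 0.40).

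Across the 62 members the 2 fractions correlated at Pearson r = 0.83 in set 2 and 0.40 in set 1, and the means of the sets at 0.70, as a description of points that share libraries and input levels. In all 4 combinations of fraction and set 37 members were below the centre, where 32.1% of all genes were, and 5 were above it in all 4, where 22.7% of all genes were. Those 5 were NDUFS7, NDUFA9, COX4I2, COX8A and COX7B. The 37 below in all 4 combinations are not the same genes as the 37 called below the centre by limma. NDUFV2, for example, was called and stood at 0.49 in migrated cells of set 1, and COX6B2 was below in all 4 and not called.

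**Figure D5:**
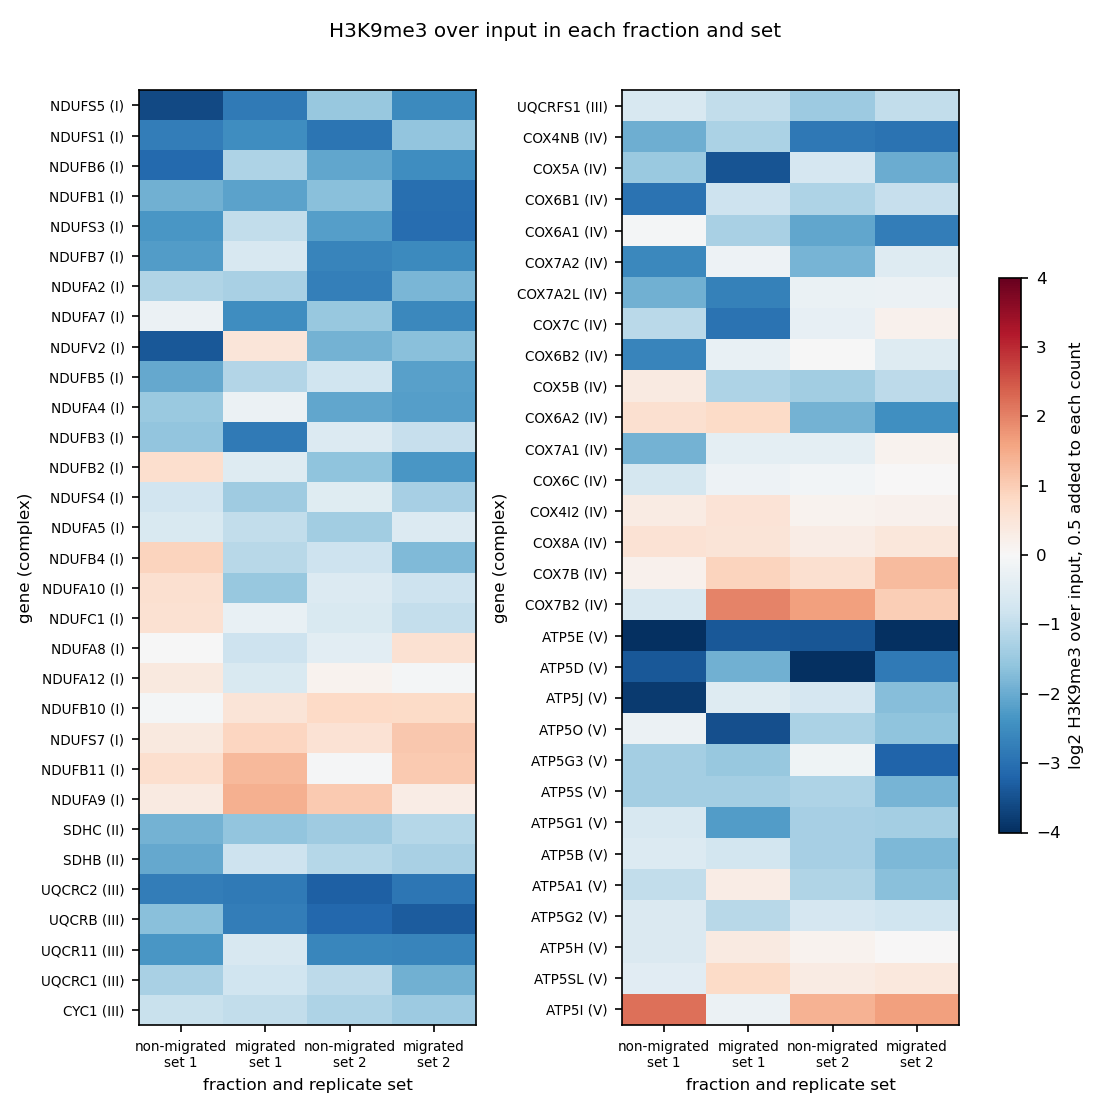
H3K9me3 over input (log2, colour, 0.5 added to each count) of 61 of the 62 genes (rows, with the complex) in the 4 combinations of fraction and replicate set (columns). ATP5E, ATP5D, UQCRC2 and UQCRB are blue in all 4, and COX7B, COX8A, COX4I2, NDUFS7 and NDUFA9 are red in all 4.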

How the data were processed

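H3K9me3 and input were sequenced in 2 fractions of SiHa cells, with 2 libraries per group. The authors deposited log2 values, per the file headers, in windows around promoters (hg19), 36796 of them 2100 bases long. Tools in the submitters' processing notes are Bowtie2 2.2.9, SAMtools 1.3 and FastQC 0.11.5; how reads were counted is not given in the sources. Duplicate reads of set 1 were removed, per the labels' protocols. The deposited log2 values turned out to be whole reads times a factor fixed for the library (0.9 stood for empty windows), and dividing by the factor made 100% of them whole within 0.01. These recovered reads were used. A quasi-likelihood test of counts had been planned, and limma 3.58.1 (R 4.3.3) took its place because the deposited unit was log2.

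Library sizes were scaled by trimmed means of M values (30% of ratios and 5% of levels trimmed), 0.5 was added to each count, and limma was fitted with precision weights (voom) to the 36440 windows that reached the level of 10 reads in a median library in at least 2 libraries and 15 reads in all. The model held set, ChIP, their product, fraction, and fraction by ChIP, with 2 residual and 33.1 prior degrees of freedom, and p-values were adjusted by Benjamini-Hochberg over all these windows at 0.05. SEs of the mean, of each fraction and of the change came from refits with the fraction coded anew. The set enters as a block, since the series calls the sets paired; libraries with the same number deviated together from their group means (r = 0.469 for input, 0.147 for H3K9me3, over windows). Nothing in the labels says that the libraries of set 1 and set 2 share cultures; set 2 is called a second biological replicate.

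The gene members, lists and tests were chosen with earlier results of these data known. Named by rule were the 6 lowest and 4 highest members with at least 20 input reads on average in set 2, enriched members, fixed core subunits and tissue isoforms, up to 3 per direction for the change (smallest p, same sign in both sets, at least 20 H3K9me3 reads on average in set 2), and the 2 lowest and 2 highest genes of each list with CYCS, PPARGC1A, TFAM, NRF1 and SURF1. Of the genes so named, 1 is not reported here, although it stays in the counts. Genes named outside this rule were chosen after their values were seen. The fitting code was tested on simulated data. RefSeq names matched 61 of 62 members, and sequences and strands are those of RefSeq on GRCh38.p14. Alternatives tried were other scalings, no filter, 2 reads added, no weights, no block, a quasi-Poisson model, another choice of window and each library left out.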

Additional observations from a re-analysis of the deposited data

Results flagged for a closer look

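NDUFA12, an accessory subunit of complex I, had H3K9me3 over input above the centre in non-migrated cells of both sets (0.40 and 0.14 on the log2 scale) and below it in migrated cells of both sets (-0.62 and -0.09), so that the fractions lay on opposite sides. The fitted change of -0.4431 (SE 0.59, adjusted p = 0.999 in limma's test of the difference) did not pass, and 4 values give little ground for an order. Its reads in set 2 were 43 input and 34 H3K9me3 in non-migrated cells and 40 and 22 in migrated cells.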

How the results depend on the processing

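The count of members below the centre (37) was 32 to 42 with every alternative that kept all 8 libraries and all members, except 49 with the deposited scaling, and the enriched count (3) was 1 with median-of-ratios scaling, 0 with the deposited scaling, and 7 with no filter and with 2 reads added. The count in migrated cells (31) fell to 16 with no filter, 20 with 2 reads added and 17 with no precision weights. Adding 2 reads also moved the median of members minus that of all genes from -1.02 to -0.83, that of complex II from -1.20 to -1.02 and that of complex V from -1.21 to -0.98; complex II gave -1.43 with the quasi-Poisson model and -1.03 with windows of the most input reads. COX7B2 gave way to NDUFB11 among the 3 enriched with no precision weights, and UQCRFS1 was lost with no filter. The causes were not tested.

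Without the replicate block the counts were 40 below and 4 enriched, 18 and 27 in non-migrated and migrated cells, and 0 for the change; NDUFS7, COX5B, ATP5A1 and COX6A2 passed. The deposited scaling turned NDUFB11 (-0.20), COX7B (-0.20), NDUFA9 (-0.15), NDUFS7 (-0.22), COX4I2 (-0.65) and the change of COX7B (-0.19). NDUFA9 turned to -1.63 in the window with the most input reads.

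With 1 library left out at a time, the ranges were 23 to 37 below and 1 to 7 enriched, 5 to 26 below in non-migrated and 4 to 32 in migrated cells, 0 to 1 for the change, and medians minus all genes of -1.08 to -0.76 (members), -1.11 to -0.86 (complex I), -1.39 to -1.03 (II), -1.94 to -1.03 (III), -0.76 to -0.39 (IV) and -1.26 to -0.69 (V). The change of ATP5B ran from -0.80 to 0.14.

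Chosen after seeing the data, own-strand windows gave -1.53 for complex V and -1.005 for NDUFS7. The fits to a single set that follow had 1 library per group, with only the fractions as replicates. Their counts of called members are therefore a description only. Set 2 alone gave 9 enriched and -0.11 for complex IV, and turned COX6B2 (0.019) and COX7A1 (0.11). Set 1 alone gave 12 below and 0 enriched, -0.72 for members and -0.74 for complex III, and turned COX6A2 (0.72); its median of 1 or 2 H3K9me3 reads per member limits what set 1 can show. Of 492 values of named members for the level, 402 kept direction and side of the threshold, as did 103 of 106 for the change. Part of these could not differ. Leaving out genes of other function reused the same fit (25 and 6 values), and genes with 1 window kept it under other choices of window. None of the named changes passed with all libraries, so keeping that side of the threshold says little.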
